A study of Sus scrofa with 13 samples.

Results

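The genes described here are 107 zinc finger genes of the pig whose symbol is ZNF followed by digits and whose mean raw count over the 12 libraries was at least 10 reads, with ZNF423 left out. They were thus chosen by their raw read counts and by their symbols. They were 107 of the 241 genes of that naming pattern and belong to a table of 27339 genes. The reads come from DNA carrying 5-hydroxymethylcytosine (5hmC), pulled down with an antibody against that base from sonicated, denatured genomic DNA and counted per gene. A count measures pulled-down DNA at the counted part of a gene, which may be only its exons, and not its RNA. No input library was set against it, so unmarked DNA in the pulldown was not taken out. The cells were mesenchymal stem cells grown from abdominal fat of female domestic pigs. All the animals compared had eaten a diet with 2% cholesterol from 6 weeks before a coil was placed in a renal artery to narrow it, and the fat was taken 3 weeks after the stenosis. There were 6 libraries of cells kept for 48 hours at 1% oxygen (hypoxia) and 6 of cells kept at 20% oxygen (normoxia). Each group carried the title numbers 4, 16, 21, 33, 49 and 110. The labels do not say what a number stands for, so it is not known from them whether a number marks 1 animal or 1 culture, and the variation behind the p-values below may be partly or wholly technical. The question the comparison addresses is whether hypoxia before use changes the 5hmC marks of stem cells from animals with renovascular disease.

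Zinc finger proteins of the ZNF naming series mostly bind DNA through C2H2 fingers, short folds in which cysteine and histidine side chains hold a zinc ion. Many also carry a KRAB box, which recruits the corepressor TRIM28 and through it the histone methyltransferase SETDB1, so that the bound DNA is packed into repressed chromatin, often at transposable elements. Others have no KRAB box and work as activators, chromatin adaptors, RNA-binding proteins or spindle proteins, and several are known in mouse as regulators of fat cell formation. 5hmC is made from 5-methylcytosine by the TET enzymes, which use molecular oxygen, and in genes it is usually found along bodies and at enhancers. The symbols are those of the deposited tables, and all 107 matched a gene of the pig RefSeq table (Sscrofa11.1), where 105 were protein coding and 2, ZNF532 and ZNF648, were listed as lncRNA. Whether each encodes zinc fingers was not examined here.

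The name "well-read" is relative. The members had mean raw counts of 10.0 to 182.7 reads with a median of 23.8, and since these counts chose them, the level itself is a description. Just inside the threshold were ZNF175 with 10.0, ZNF133 with 10.25 and ZNF646 with 10.3 reads. Just outside were ZNF740 with 9.58 and both ZNF365 and ZNF668 with 9.83 reads. Of the ZNF genes, 44.4% reached the threshold, the same share as among all genes (44.4%, 12139 genes). The other 134 ZNF genes had a median of 4.58 reads, and 3 of them had 0 reads in every library. A filter on low counts kept 102 members for the tests. ZNF133, ZNF175, ZNF184, ZNF646 and ZNF771 did not pass it and have values but no test. Levels are given per gene and are not compared between genes, because a longer gene collects more reads and no gene lengths of the files' build were used.

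Each library held between 15569948 and 27428482 counted reads. Of these, 1.69 to 2.89% were assigned to genes and 88.0 to 93.0% to no counted feature. The sources used here do not say whether whole genes or only exons were counted, so the latter may include reads inside genes. The gene reads were 353379 to 623108 per hypoxia library and 263578 to 714002 per normoxia library, both extremes of the normoxia range being single libraries (number 21 lowest, number 4 highest). The normoxia library of number 21 stood apart. It had 10.3% low-quality reads and a TMM factor of 0.889, the others having 0.950 to 1.06, and it was the highest library for 26 of 102 tested members (25.5%, against 24.1% of all genes) and the lowest for 19 (18.6%, against 20.3%). The members held 2869 to 5032 reads per hypoxia library and 1917 to 5245 per normoxia library. In counts of DNA, marker genes cannot name a cell type. Of the lists of markers, 1 of 7 stromal, 4 of 4 endothelial, 3 of 3 tested immune, 1 of 1 tested epithelial and 0 of 2 smooth muscle genes had a positive log2 fold change, and none passed the test. The summed share of gene reads on the immune markers was 0.0219 to 0.0335% in hypoxia and 0.0153 to 0.0295% in normoxia, and that on the stromal markers was 0.0612 to 0.0857% in hypoxia and 0.0516 to 0.106% in normoxia. By number, the share in hypoxia was higher in 6 of 6 for the immune, 5 of 6 for the endothelial, 5 of 6 for the epithelial, 1 of 6 for the stromal and 0 of 6 for the smooth muscle markers. ACTA2, a smooth muscle actin, was at 58.5 ± 44.3 CPM in hypoxia and 102 ± 84.0 CPM in normoxia (SD, n = 6 each, edgeR adjusted p = 0.354 with the title number as a block). Their part in the values below was not tested, and in bulk DNA another mix of cells and another level of marking per cell cannot be told apart.

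As a group, the 107 genes held slightly more of the gene reads under hypoxia. Their summed share was 0.800 ± 0.0127% (SD, n = 6) under hypoxia, against 0.763 ± 0.0265% (SD, n = 6) under normoxia, a difference of 0.0369 percentage points or 4.84% of the normoxia share. The share was higher in hypoxia in 6 of 6 title numbers, as was that of the immune markers. In number 4 it was 0.808% in hypoxia and 0.735% in normoxia, the widest gap, and in number 49 it was 0.798% in hypoxia and 0.790% in normoxia, the narrowest. On the lane 7 libraries alone (numbers 16, 21, 33 and 110, by the sequencing lane that the deposited tables are named with) the difference was 0.0353 percentage points, and numbers 4 and 49 made up lane 8. The groups overlapped, since the hypoxia library of number 21, at 0.776%, lay below the normoxia libraries of numbers 16, 49 and 110. The members were chosen with results known, so no p is given for this sum.

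The group difference depended on how libraries were scaled. With TMM, which sets the scale by the bulk of genes rather than by the total, the summed level, as scaled read counts (CPM), was 8863 ± 229 CPM (SD, n = 6) under hypoxia, against 8802 ± 421 CPM (SD, n = 6) under normoxia, a difference of 0.689%, and it was higher in hypoxia in 3 of 6 numbers. On the share, 68 members were higher in hypoxia and 39 were lower. The same count over all genes is not given here. Scaled by library size alone, 59.8% of tested members and 51.2% of all genes were higher in hypoxia, against 50% and 43.4% with TMM. ZNF827 alone carried 15.1% of the summed difference, ZNF644 12.9% and ZNF787 10.4%. This is a net difference, and members on the other side took away from it, ZNF507 with -10.1%, ZNF438 with -7.85%, ZNF410 with -6.06% and ZNF436 with -6.04%. ZNF827 is a protein that brings the NuRD complex to telomeres, and ZNF644 is a partner of the histone H3 lysine methyltransferases G9a and GLP. The 134 ZNF genes under the threshold held 0.139 ± 0.0130% of gene reads (SD, n = 6) under hypoxia, against 0.132 ± 0.0172% (SD, n = 6) under normoxia, higher in hypoxia in 5 of 6 numbers.

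**Figure D1:**
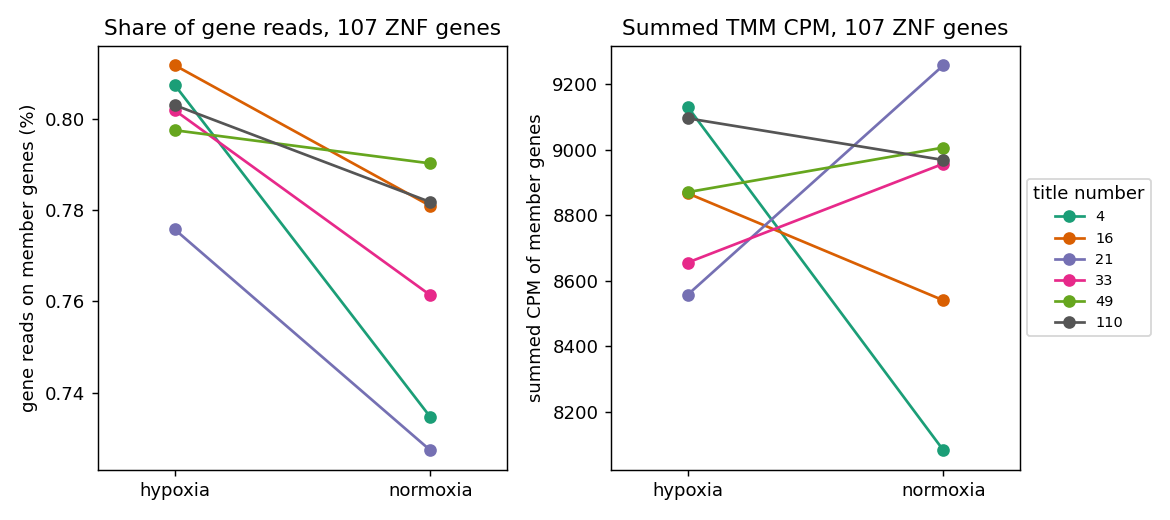
The 107 ZNF genes summed, for the 6 hypoxia and 6 normoxia libraries (points, joined by title number), as the percent of gene reads on the left and as summed TMM CPM on the right. All 6 lines are higher in hypoxia on the left and 3 of 6 are on the right.

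No member passed the test of hypoxia against normoxia. In edgeR's quasi-likelihood test without a block, 0 of 102 members were called at an adjusted p under 0.05, against a background of 0% of the 11868 genes tested (0 genes). With the title number as a block, 0 of 102 members were called, against 0.0337% of all genes (0.0253% higher and 0.00843% lower in hypoxia, 4 genes). The smallest adjusted p of a member was 0.354, that of ZNF391 in the blocked fit. At an unadjusted p under 0.05, 4 of 102 members passed without the block, or 3.92%, against 2.73% of all genes. These were ZNF391 and ZNF330 on the higher side, where 0.918% of all genes passed, and ZNF410 and ZNF507 on the lower side, where 1.81% did. With the block 7 passed, or 6.86%, against 7.09% of all genes, 4 on the higher side against 2.6% and 3 on the lower side against 4.49%. DESeq2 also called 0 members, against 0% of all genes, and at an unadjusted p under 0.05 it had 4 of 102, or 3.92%, against 2.81% of all genes.

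The members were balanced between the directions. Of the 102, 51 were above 0 and 51 below 0 on the log2 scale. Their median fold change was 0.000859, against 43.4% positive and a median of -0.0431 over all genes tested. With the block, 52 were positive and the median was 0.0134, against 46.6% positive and a median of -0.0212 over all genes. With scaling by library size alone, 61 of 102 (59.8%) were positive and the median was 0.045, against 51.2% positive and a median of 0.00769 over all genes. Fold changes ran from -0.80 for ZNF507 to 1.00 for ZNF391, and 6 members lay beyond 0.5 in either direction, or 5.88%, against 7.93% of all genes. The hypoxia and normoxia libraries overlapped for all 102 members, against a background of 0.0421% of genes with every hypoxia library higher and 0.059% with every one lower. ZNF787 was higher in hypoxia in all 6 numbers, where 1.68% of all genes were, and ZNF207 and ZNF436 were lower in all 6, where 2.59% were.

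**Figure D2:**
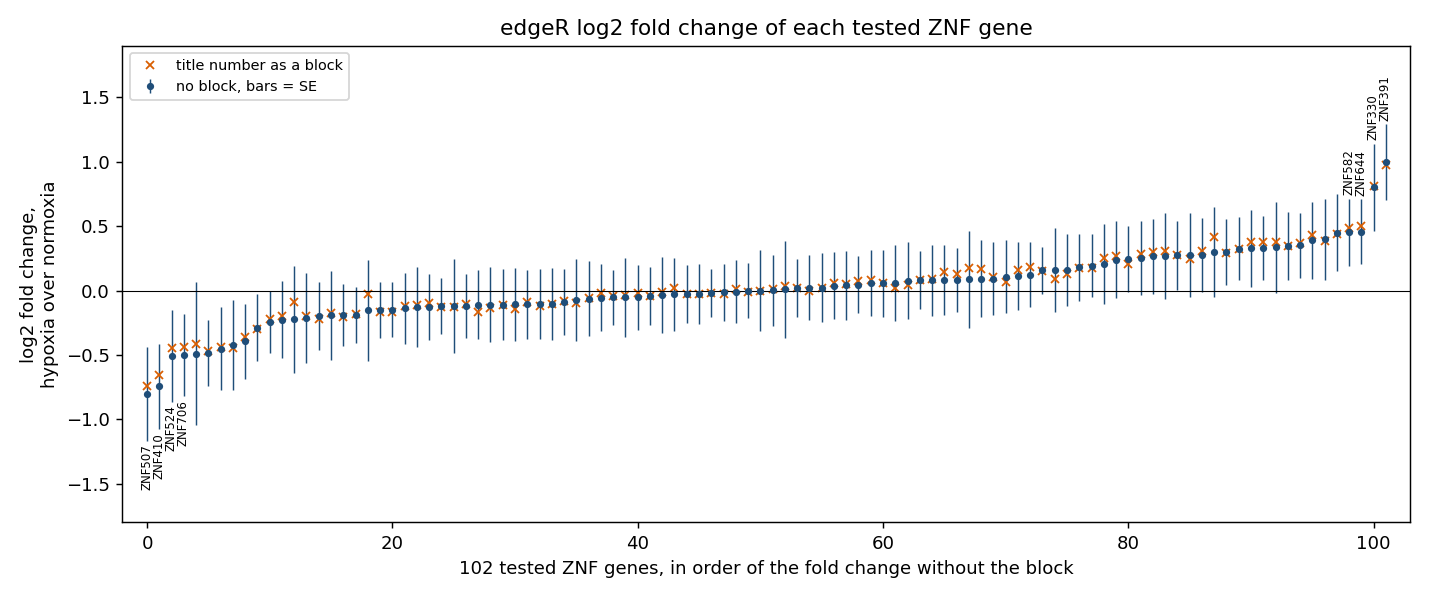
Log2 fold change of hypoxia over normoxia for the 102 tested ZNF genes, ordered by the fit without a block (points with SE bars), with the blocked fit as crosses. The values pass through 0 at the middle of the order, 51 on each side, and end at -0.80 (ZNF507) and 1.00 (ZNF391).

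Among members higher in hypoxia, ZNF391 had the smallest p. Its level was 34.0 CPM in the lowest hypoxia library, 49.6 at the median and 71.3 in the highest, against 13.8, 22.6 and 38.6 CPM in normoxia. The hypoxia library of number 16, at 34.0 CPM, was lower than its normoxia library, at 35.0 CPM, and the other 5 numbers were higher in hypoxia. The means were 50.2 ± 13.5 CPM in hypoxia and 25.7 ± 9.33 CPM in normoxia (SD, n = 6 each), with a log2 fold change of 1.00 ± 0.294 (SE) and an adjusted p of 1.00 without the block. With the block it was 0.98 ± 0.282, and the adjusted p was 0.354. Within lane 7 it was 0.97 and within lane 8 it was 1.08. ZNF391 had a mean of 16.1 raw reads. Among protein-coding genes it lies next to ZNF184, another member, which was too thinly read to test. ZNF391 also overlaps LOC102159855, which had 5.83 reads.

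ZNF330 encodes a nucleolar protein. Its lowest, median and highest levels were 30.9, 55.8 and 84.8 CPM in hypoxia and 10.8, 32.9 and 50.1 CPM in normoxia. It was higher in hypoxia in 5 of 6 numbers, number 16 being the exception. The log2 fold change was 0.80 ± 0.338 (SE, adjusted p = 1.00), and with the block 0.81 ± 0.283 (adjusted p = 0.539). Without the normoxia library of number 4, at 10.8 CPM the lowest, it was 0.59, and by lane it was 0.61 on lane 7 and 1.18 on lane 8.

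ZNF644, the partner of G9a and GLP named above, had 124, 179 and 224 CPM as its lowest, median and highest levels in hypoxia, against 58.6, 140 and 171 CPM in normoxia. It was higher in hypoxia in 5 of 6 numbers, with number 33 lower, and the normoxia libraries of numbers 33, 49 and 110, at 164 to 171 CPM, lay within the hypoxia range. Its log2 fold change was 0.46 ± 0.252 (SE, adjusted p = 1.00), and with the block 0.50 ± 0.207 (adjusted p = 0.646). Without the normoxia library of number 4, its lowest, it was 0.30. On lane 7 alone it was 0.22 and on lane 8 alone, with 2 libraries a group, 0.94.

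ZNF582 and ZNF671 are KRAB zinc finger genes whose promoters are known to be methylated in cervical cancer. ZNF582 was at 75.2 ± 12.1 CPM in hypoxia and 56.4 ± 22.3 CPM in normoxia (SD, n = 6 each), with a log2 fold change of 0.45 ± 0.260 (SE). With the block the log2 fold change of ZNF582 was 0.48 ± 0.227 (adjusted p = 0.696). Its highest library of all was the normoxia library of number 21, at 96.6 CPM, and the other 5 numbers were higher in hypoxia. ZNF671 was at 34.7 ± 12.4 CPM in hypoxia and 24.7 ± 6.89 CPM in normoxia (SD, n = 6 each), with a log2 fold change of 0.45 ± 0.301 (SE). It was higher in hypoxia in 4 of 6 numbers, and without the hypoxia library of number 16, at 55.6 CPM its highest, the log2 fold change was 0.30. With the block and all libraries it was 0.44 ± 0.307 (adjusted p = 0.837).

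ZNF787 was the member higher in every number. Its levels were 148, 175 and 209 CPM as lowest, median and highest in hypoxia, against 43.5, 156 and 195 CPM in normoxia. The normoxia library of number 21, at 43.5 CPM, stood far under the other 5, which were between 142 and 195 CPM. The log2 fold change was 0.33 ± 0.249 (SE, adjusted p = 1.00), and with the block 0.38 ± 0.195 (adjusted p = 0.711). Without the normoxia library of number 21 it was 0.17.

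Among members lower in hypoxia, ZNF507 had the largest difference. Its lowest, median and highest levels were 32.6, 62.8 and 91.7 CPM in hypoxia and 35.0, 101 and 231 CPM in normoxia. The value of 231 CPM came from the normoxia library of number 33, and number 16 went the other way, with 71.1 CPM in hypoxia and 35.0 CPM in normoxia. The log2 fold change was -0.80 ± 0.365 (SE, adjusted p = 1.00) and with the block -0.74 ± 0.253 (adjusted p = 0.535). Without the normoxia library of number 33 it was -0.43, and by lane it was -0.70 on lane 7 and -0.93 on lane 8. ZNF507 overlaps LOC110261352, which was at 28.7 ± 10.4 CPM in hypoxia and 39.1 ± 8.87 CPM in normoxia (SD, n = 6 each).

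ZNF410 encodes an activator of CHD4, the ATPase of the NuRD complex. Its lowest, median and highest levels were 30.2, 38.0 and 59.5 CPM in hypoxia and 30.4, 57.5 and 146 CPM in normoxia. Here too the highest library was normoxia number 33. It was lower in hypoxia in 4 of 6 numbers, with a log2 fold change of -0.74 ± 0.332 (SE, adjusted p = 1.00), which was -0.36 without that library, -0.77 on lane 7 and -0.64 on lane 8. With the block the log2 fold change was -0.66 ± 0.274 (adjusted p = 0.646). FAM161B, which overlaps ZNF410, was at 41.1 ± 9.12 CPM in hypoxia and 65.5 ± 14.1 CPM in normoxia (SD, n = 6 each) and lower in 5 of 6 numbers. Reads in the stretch that such genes share may be assigned to neither or to only 1 of them. The RefSeq spans of 33 members overlapped another gene, and not all of these overlaps are named here. ZNF582, ZNF671 and ZNF524 are among those members.

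ZNF436 and ZNF207 were lower in hypoxia in every number. ZNF436 had 46.4, 68.9 and 93.5 CPM as lowest, median and highest in hypoxia, against 66.3, 97.1 and 145 CPM in normoxia. Its log2 fold change was -0.48 ± 0.255 (SE, adjusted p = 1.00), and with the block -0.47 ± 0.217 (adjusted p = 0.689). In number 4 the gap was small, with 63.5 CPM in hypoxia and 66.3 CPM in normoxia, while number 21 had 49.4 CPM in hypoxia and 145 CPM in normoxia. By lane the log2 fold change was -0.66 on lane 7 and -0.0995 on lane 8. ZNF207, also called BuGZ, is a spindle and kinetochore protein. It was at 42.6 ± 17.5 CPM in hypoxia and 58.3 ± 21.3 CPM in normoxia (SD, n = 6 each), with a log2 fold change of -0.45 ± 0.322 (SE), which was -0.26 without the hypoxia library of number 21, at 10.97 CPM its lowest. With the block the log2 fold change of ZNF207 was -0.44 ± 0.244 (adjusted p = 0.744). In number 16 its hypoxia and normoxia libraries were nearly equal, at 37.1 CPM in hypoxia and 37.4 CPM in normoxia. ZNF706 and ZNF524 were the remaining members of the 5 with the smallest p on this side. ZNF706 was at 29.2 ± 9.80 CPM in hypoxia and 41.3 ± 17.7 CPM in normoxia, and ZNF524 at 21.3 ± 9.12 CPM in hypoxia and 29.8 ± 15.7 CPM in normoxia (SD, n = 6 each). Without the normoxia library of number 49, the highest for both, ZNF706 had a log2 fold change of -0.23 in place of -0.50 and ZNF524 one of -0.24 in place of -0.51.

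**Figure D3:**
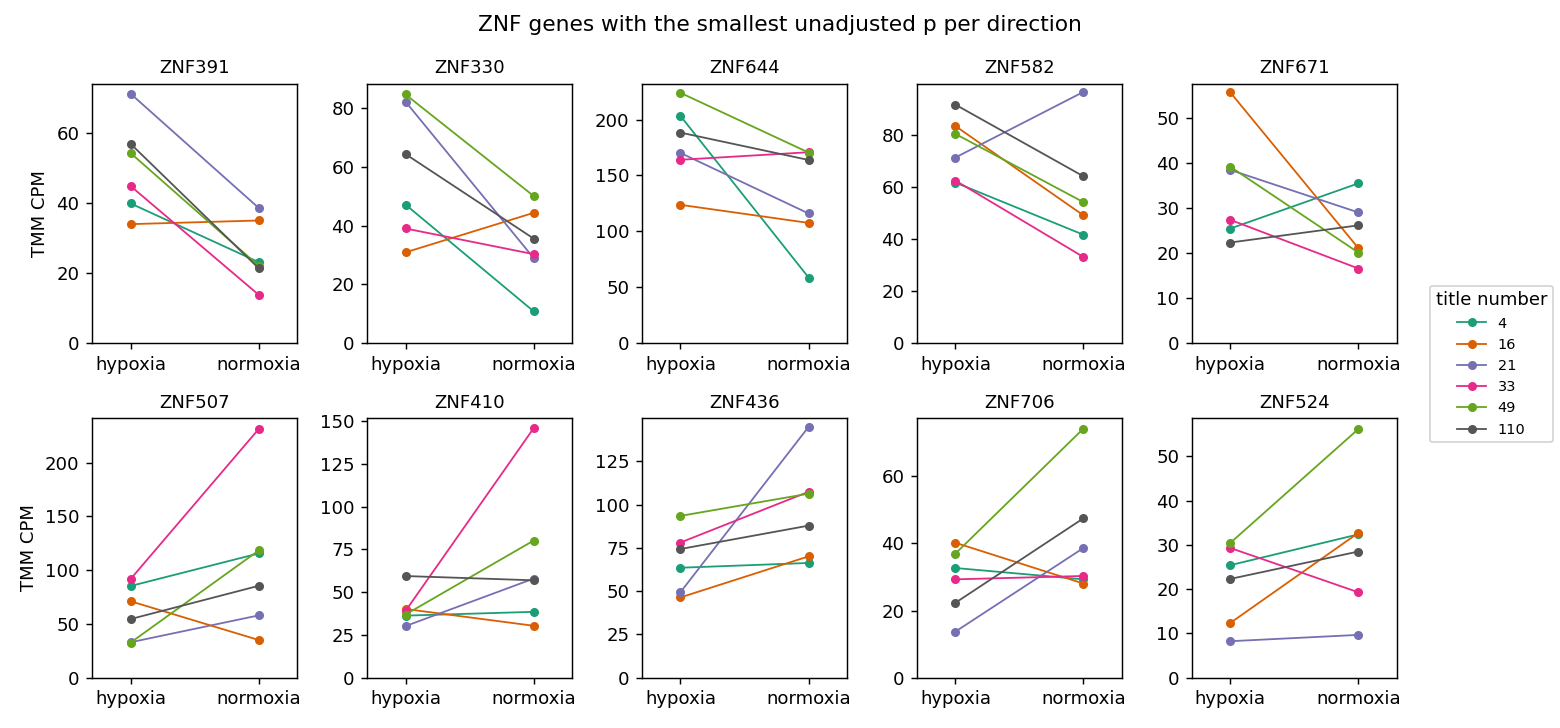
TMM CPM per library for the ZNF genes with the smallest unadjusted p in each direction, hypoxia left of normoxia, with lines joining the libraries of a title number. Hypoxia and normoxia points overlap in each panel. For ZNF507 and ZNF410 the highest point is the normoxia library of number 33, at 231 and 146 CPM.

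The 5 most-read members held 18.8% of the members' reads and their log2 fold changes lay between -0.24 and 0.16. ZNF827 was at 450 ± 76.2 CPM in hypoxia and 404 ± 49.96 CPM in normoxia (SD, n = 6 each), higher in 5 of 6 numbers, with a log2 fold change of 0.16 ± 0.184 (SE). It was 0.10 without the hypoxia library of number 49, and -0.0033 on lane 7 alone and 0.52 on lane 8 alone. ZNF827 overlaps LOC100523624, which held a mean of 112 reads. ZNF462, a chromatin regulator of pluripotency and development, was at 402 ± 57.7 CPM in hypoxia and 408 ± 59.4 CPM in normoxia (SD, n = 6 each), with a log2 fold change of -0.02 ± 0.184 (SE). In ZNF462 the hypoxia and normoxia libraries of a number stayed close, as in number 49 with 311 CPM in hypoxia and 321 CPM in normoxia, and number 16 with 479 CPM in hypoxia and 486 CPM in normoxia.

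ZNF512 was at 345 ± 123 CPM in hypoxia and 322 ± 152 CPM in normoxia (SD, n = 6 each), a spread between libraries wider than that of ZNF827 or ZNF462. ZNF438 was at 234 ± 58.0 CPM in hypoxia and 280 ± 96.3 CPM in normoxia (SD, n = 6 each), with a log2 fold change of -0.24 ± 0.240 (SE), which was -0.0937 without the normoxia library of number 21, at 430 CPM its highest, and -0.14 without the hypoxia library of number 49. It overlaps ZEB1, a zinc finger factor of the epithelial to mesenchymal transition, at 95.3 ± 19.3 CPM in hypoxia and 90.4 ± 41.9 CPM in normoxia (SD, n = 6 each). ZNF655, a gene linked to the cell cycle, was at 252 ± 60.998 CPM in hypoxia and 249 ± 65.6 CPM in normoxia (SD, n = 6 each).

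Members with known roles in fat and mesenchymal cells were counted as a list of 9 genes, of which 8 were tested, 2 above and 6 below 0 in log2 fold change. Their median was -0.0884, against a median of -0.0431 and 43.4% positive over all genes, and 0 of 8 passed the test. ZNF521, whose mouse counterpart restrains fat cell formation, had 34.0, 43.1 and 74.4 CPM as lowest, median and highest in hypoxia, against 30.3, 54.9 and 68.8 CPM in normoxia, with 3 numbers higher and 3 lower. ZNF638, a cofactor of fat cell formation in mouse, was at 64.1 ± 23.5 CPM in hypoxia and 68.2 ± 28.9 CPM in normoxia (SD, n = 6 each). ZNF516, a brown fat factor in mouse, was at 61.3 ± 21.1 CPM in hypoxia and 66.3 ± 19.2 CPM in normoxia (SD, n = 6 each). The log2 fold changes of these 3 were between -0.11 and -0.07.

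ZNF395, a factor described as responding to hypoxia, had 27.8, 40.4 and 56.3 CPM as lowest, median and highest in hypoxia, against 9.66, 25.9 and 69.3 CPM in normoxia. It was higher in hypoxia in 4 of 6 numbers. The log2 fold change was 0.42 ± 0.297 with the block (SE, adjusted p = 0.839) and 0.30 ± 0.350 (SE) without it. Leaving out 1 normoxia library gave 0.72 without number 4, 0.18 without number 33 and 0.16 without number 21, leaving out hypoxia number 4 gave 0.18, and lane 7 alone gave 0.58 and lane 8 alone 0.0936. Both the lowest and the highest library were normoxia libraries. ZNF281, a factor of pluripotency and of the epithelial to mesenchymal transition, was lower in hypoxia in 5 of 6 numbers, at 202 ± 59.3 CPM in hypoxia and 232 ± 61.4 CPM in normoxia (SD, n = 6 each), with a log2 fold change of -0.19 ± 0.238 (SE). Number 4 went against the others, with 292 CPM in hypoxia and 149 CPM in normoxia. Leaving out 1 library moved the value between -0.33, without hypoxia number 4, and -0.0715, without normoxia number 33. ZNF469, which is linked to collagen and the cornea, was at 24.7 ± 6.80 CPM in hypoxia and 27.0 ± 20.3 CPM in normoxia (SD, n = 6 each), and had 0 reads in the normoxia library of number 21. ZNF467, also on the list, was under the threshold with 1.42 reads.

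Of 9 listed genes of chromatin and transcription, 7 were tested, 4 above and 3 below 0 in log2 fold change. The median was 0.00991, and 0 passed. Over all genes tested, 43.4% were positive and the median was -0.0431. ZNF618, which partners UHRF2, a protein that binds 5hmC, was at 83.6 ± 20.5 CPM in hypoxia and 86.1 ± 30.3 CPM in normoxia (SD, n = 6 each), with a log2 fold change of -0.05 ± 0.262 (SE). In ZNF618 the libraries of number 4 were at 109 CPM in hypoxia and 112 CPM in normoxia and those of number 110 at 59.5 CPM in hypoxia and 57.0 CPM in normoxia. ZNF143, an activator bound at promoters, was at 106 ± 11.8 CPM in hypoxia and 95.3 ± 36.8 CPM in normoxia (SD, n = 6 each). Its hypoxia libraries lay between 87.8 and 116 CPM, within a normoxia range of 38.6 to 131 CPM. ZNF592, a member of the ZMYND8 complex, was at 63.8 ± 20.5 CPM in hypoxia and 51.8 ± 10.2 CPM in normoxia, and ZNF532, of the same complex, at 97.3 ± 21.7 CPM in hypoxia and 112 ± 16.0 CPM in normoxia (SD, n = 6 each).

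Of 8 listed genes of RNA, ribosome and spindle, 6 were tested, 3 in each direction, with a median of 0.0312, and 0 passed. ZNF451, a SUMO ligase, had 52.5, 72.4 and 102 CPM as lowest, median and highest in hypoxia, against 35.4, 63.7 and 74.8 CPM in normoxia, with a log2 fold change of 0.35 ± 0.253 (SE), or 0.23 without the normoxia library of number 4. ZNF326, also listed, was not among the genes counted, and ZNF598 was under the threshold with 2.83 reads. Of 7 listed neural and developmental genes, 5 were tested, 1 above and 4 below 0 in log2 fold change. The median was -0.0188, and 0 passed. For both lists, the values over all genes tested were 43.4% positive and a median of -0.0431. ZNF536, a repressor of neuronal differentiation, was at 217 ± 54.1 CPM in hypoxia and 219 ± 42.6 CPM in normoxia (SD, n = 6 each). The listed role genes cover 25 members, and 82 members are on none of these lists.

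The machinery that KRAB zinc finger proteins work with was listed separately. Of 15 listed corepressor genes, 11 were tested, 3 above and 8 below 0 in log2 fold change. The median was -0.155, and 0 passed. Over all genes tested, 43.4% were positive, the median was -0.0431 and 0% passed. The smallest p in that list were those of ATF7IP, the partner of SETDB1, at -0.34 ± 0.184, and of DNMT1, the maintenance DNA methyltransferase, at -0.51 ± 0.328 (log2 fold change ± SE). Of 125 genes with symbols of other C2H2 families, 65 were tested, 34 above and 31 below 0 in log2 fold change, and 0 passed. They were picked by symbol alone, and whether each encodes C2H2 fingers was not examined. The family sums may thus include genes of other kinds. As a sum these families held 0.789 ± 0.0390% of gene reads (SD, n = 6) under hypoxia, against 0.804 ± 0.0525% (SD, n = 6) under normoxia, higher in hypoxia in 1 of 6 numbers, and the difference between that sum and the members' sum was not tested. The families went different ways. The share was higher in hypoxia in 6 of 6 numbers for the IKZF genes, as for the members, in 5 of 6 for ZIC, in 4 of 6 for KLF, SP and EGR, in 3 of 6 for ZKSCAN and ZFP, and in 2 of 6 for ZSCAN, GLI and PRDM. The ZBTB genes, 36 in all, held 0.314 ± 0.0408% (SD, n = 6) under hypoxia, against 0.352 ± 0.0484% (SD, n = 6) under normoxia, and were lower in hypoxia in 6 of 6 numbers.

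Some members differed between title numbers. In the blocked fit, the number term of edgeR's quasi-likelihood F test passed an adjusted p of 0.05 for 7 of 102 members, or 6.86%, against 12.8% of all genes. ZNF883 had the widest range of the 7 as a ratio of number means, though not in CPM, where ZNF512 did. In hypoxia it was at 32.7, 34.0, 8.23, 7.81, 10.9 and 66.9 CPM in numbers 4, 16, 21, 33, 49 and 110, and in normoxia at 55.5, 23.4, 58.0, 5.51, 6.02 and 78.3 CPM. Numbers 33 and 49 were low and number 110 high at both oxygen levels, and number 21 differed between them. The mean over both libraries was 72.6 CPM in number 110 and 6.66 CPM in number 33, a ratio of 10.9 (adjusted p = 0.00166).

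ZNF512 was next, with a mean of 504 CPM in number 49 and 195 CPM in number 4 (adjusted p = 0.00613). Numbers 49 and 110 were the highest at both oxygen levels, at 513 and 483 CPM in hypoxia and 495 and 468 CPM in normoxia, and the next highest library was normoxia number 16 at 390 CPM. ZNF341, which drives transcription of STAT3, had means of 245 CPM in number 49 and 95.2 CPM in number 21 (adjusted p = 0.0280). ZNF507 ran between 162 CPM in number 33 and 45.4 CPM in number 21 (adjusted p = 0.0323), and ZNF362 between 126 CPM and 38.8 CPM in the same numbers (adjusted p = 0.0402). ZNF703, a corepressor known from breast cancer, ran between 222 CPM in number 110 and 109 CPM in number 33 (adjusted p = 0.0436).

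For ZNF667 the difference between numbers rested on number 21. Its means were 159 CPM in number 21 and 39.9 CPM in number 49 (adjusted p = 0.0156), and its normoxia library of number 21 stood at 227 CPM while the other normoxia libraries were at 34.1 to 55.1 CPM. The hypoxia library of number 21, at 90.5 CPM, was the highest of its group. Without both libraries of number 21, ZNF667 no longer passed (adjusted p = 0.428), the other 6 did, and 8 of 102 members passed, against 15.9% of all genes. Lane 8 held numbers 4 and 49, which were the lowest and the highest number for ZNF512.

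**Figure D4:**
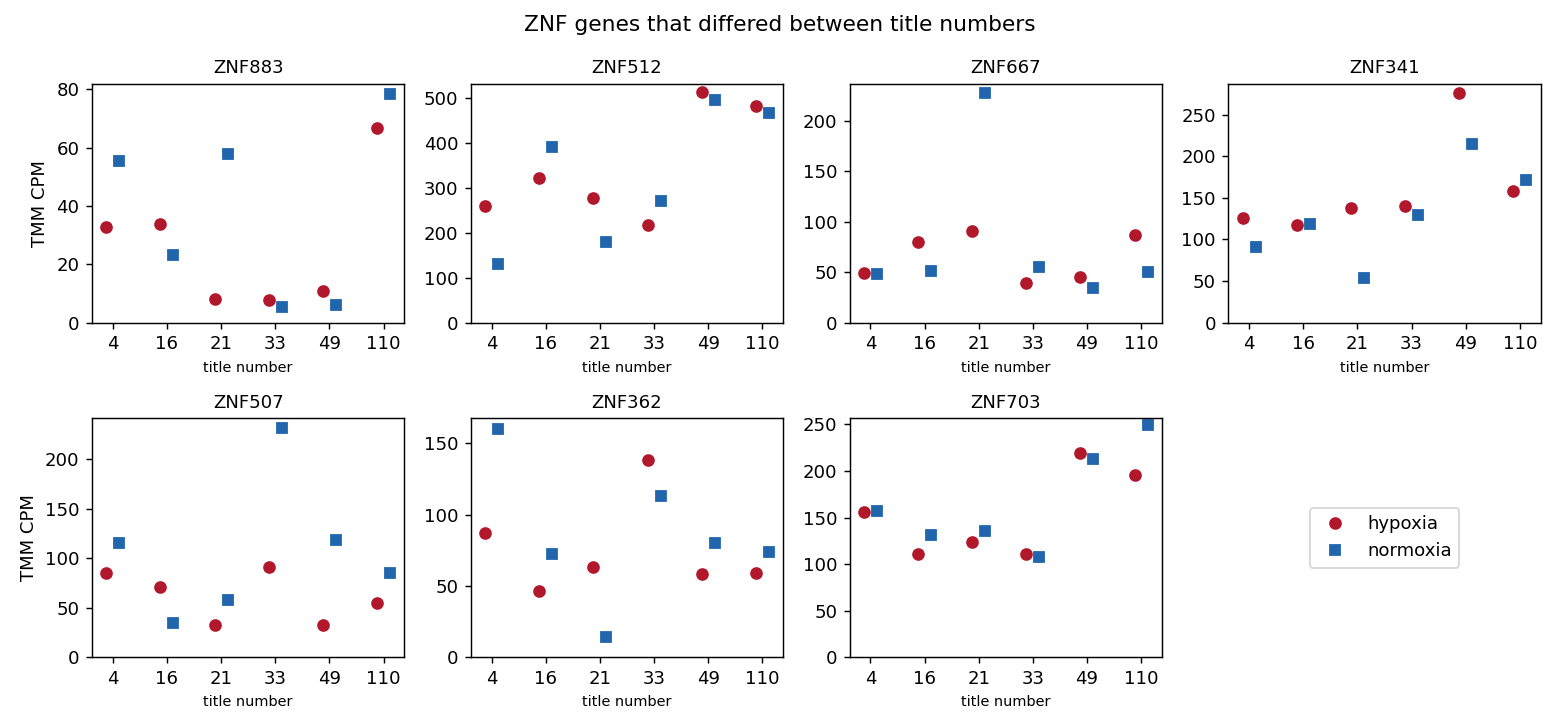
TMM CPM by title number for the 7 ZNF genes that differed between numbers, with hypoxia and normoxia libraries as separate markers in each number. ZNF883 is highest in number 110 in both and lowest in number 33, ZNF512 is highest in numbers 49 and 110, and the normoxia library of number 21 stands alone for ZNF667 at 227 CPM.

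Members that lie next to each other in the pig gene order did not all go the same way. Here, next means that no other protein-coding gene of the RefSeq table lay between them. The run ZNF689, ZNF688 and ZNF764 had log2 fold changes of -0.42, 0.25 and -0.11. ZNF236 and ZNF516 had -0.29 and -0.11, ZNF197 and ZNF35 had 0.24 and 0.08, and ZNF81 and ZNF182 had 0.08 and 0.40. None of these passed the test.

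The precision followed the reads. The 22 members with a mean of at least 50 raw reads had a median SE of the log2 fold change of 0.232 and a median coefficient of variation over the 12 libraries of 25.4%. The 45 members of 20 to 50 reads had a median SE of 0.263 and a coefficient of variation of 28.8%. The 40 members under 20 reads had a coefficient of variation of 39.0%, and the 35 of them that were tested had a median SE of 0.310. With the block the median SE was 0.188, 0.234 and 0.288 in the same order. The positive side held 10 of 22, 20 of 45 and 21 of 35 tested members in these classes, against 43.4% of all genes tested.

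**Figure D5:**
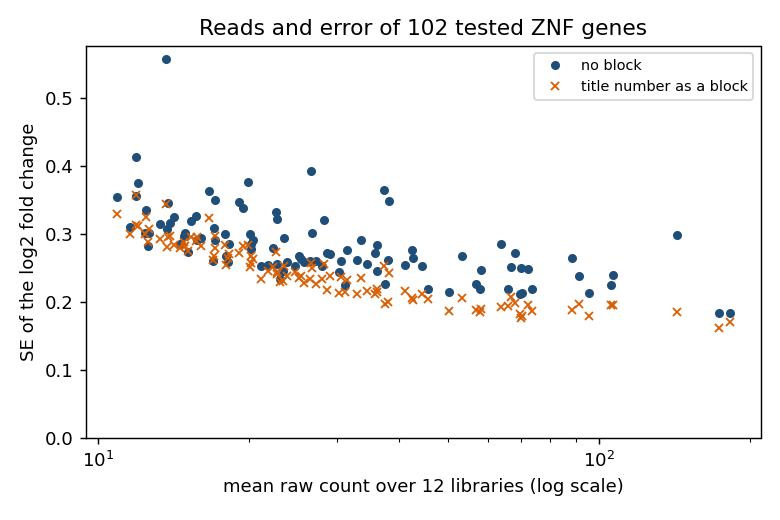
SE of the log2 fold change of each of the 102 tested ZNF genes against its mean raw count over the 12 libraries (log axis), without the block as points and with it as crosses. The SE falls with the reads, with medians of 0.310 under 20 reads and 0.232 at 50 reads or more without the block, and of 0.288 and 0.188 with it.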

How the data were processed

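The authors deposited HTSeq counts, whole-number raw counts of reads per gene, for 6 hypoxia and 6 normoxia 5hmC libraries. An input library, in neither group, and the peak lists were not used here. Per the submitters' processing notes the tools were Bowtie2, Picard, MACS2, HTSeq and edgeR; for versions, genome build, annotation, feature type and strand the sources used here give nothing, so overlapping and antisense genes cannot be told apart. Rows of reads not assigned to a gene were left out of library sizes (88.0 to 93.0% no feature, 4.12 to 10.3% low quality, 0.00502 to 0.00948% ambiguous).

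All genes were fitted together with edgeR 4.0.16 (R 4.3.3), with filterByExpr (minimum count 10), TMM scaling, and glmQLFit and glmQLFTest with Benjamini-Hochberg adjustment over the 11868 genes kept. The main fit had no block, although the libraries are paired by the rule given below. A log2 fold change given without mention of the block is from a fit without it. Its SE was worked back from the test, as the absolute log2 fold change divided by the square root of F. The biological coefficient of variation was 0.3045 without the block and 0.2098 with it. The fit with the title number as a block is the main alternative, and DESeq2 1.42.0, library size scaling, no filter, lanes and single libraries left out are the others. CPM are TMM-scaled. Reads are not independent molecules, so counting error is only part of the spread. The least different pair of the 66 pairs of libraries had a chi-square per degree of freedom of 1.26, so no library was counted as a repeat of another. Deviations from the group means correlated within every title number (r = 0.136, 0.439, 0.332, 0.417, 0.478 and 0.369 for numbers 4, 16, 21, 33, 49 and 110). Every value was over 0.1, which by the rule used here pairs the libraries, although the hypoxia libraries of numbers 4 and 33 correlated more with a normoxia library of another number (0.414 and 0.504).

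The members and gene lists were chosen with earlier results of these data known. Genes are named by rule: the 5 members with the smallest p per direction, the 3 per direction in the blocked fit, the 5 with the highest CPM, role lists, and those at the threshold. A part of the rule that needed protein sequences or lengths was not applied. ZNF787, the genes that differed between numbers, overlapping genes and the family sums were chosen after their values were seen. The test of the number term and the count at unadjusted p were added after seeing the data. The fits were also run on simulated data, but no result of those runs is given here, so they do not bear on the values above.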

Additional observations from a re-analysis of the deposited data

Results flagged for a closer look

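The libraries of each group were examined for 1 value standing far from the other 5, for 56 groups of 6 values, and 3 were found. The 56 groups did not cover all members. Chance alone flags about 1 in 20 groups. ZNF341 was at 276 CPM in the hypoxia library of number 49, while the other hypoxia libraries were at 117 to 159 CPM. ZNF410 was at 59.5 CPM in the hypoxia library of number 110, with the others at 30.2 to 40.2 CPM. ZNF667 was at 227 CPM in the normoxia library of number 21, with the others at 34.1 to 55.1 CPM. For ZNF341 the normoxia library of number 49, at 215 CPM, was also the highest of its group. ZNF787 was not among the groups examined. Its normoxia library of number 21, at 43.5 CPM, stood far under the others, at 142 to 195 CPM.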

How the results depend on the processing

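No member was called at an adjusted p under 0.05 in any alternative run, and 14 of the 22 named genes kept their sign throughout. With the title number as a replicate block, 4 genes of the whole table were called, against 0 without it, and none was a member. Counting by an unadjusted p under 0.05, 4 members passed (3.92%, against 2.73% of all genes), and with the block 7 (6.86%, against 7.09%). Leaving out 1 library, or 1 number in the blocked fit, gave 0 to 12 genes called, the 12 being the blocked fit without number 21. In those refits the log2 fold change ran from -0.16 to 0.093 for ZNF292, -0.0786 to 0.057 for ZNF462, -0.0758 to 0.30 for ZNF512, -0.28 to 0.0697 for ZNF521 and -0.0855 to 0.25 for ZNF655. On the lane 7 libraries alone ZNF512 was at -0.0239, ZNF655 at -0.13 and ZNF827 at -0.0033, and on lane 8 alone, with 2 libraries a group, ZNF281 was at 0.30, ZNF292 at 0.0767, ZNF438 at 0.21, ZNF462 at 0.0665 and ZNF521 at 0.04. ZNF462 was at 0.0361 with library size scaling and at 0.00084 with no filter. With members defined by at least 20 reads, 30 of 67 tested genes were positive (44.8%) and their median was -0.0188. With all members it was 51 of 102 (50%). Over all genes tested, 43.4% were positive and the median was -0.0431. With library size scaling the members' median was 0.045 and 61 of 102 were positive, against a median of 0.00769 over all genes. The cause of the changes of sign was not tested. Depth limits the members under 20 reads most.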
